A study of Rattus norvegicus albus with 14 samples.

Results

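The mitosis and kinetochore genes are a group of genes whose products carry a cell through mitosis, the stage of the cell cycle in which copied chromosomes are pulled apart and the cell divides. They were chosen from a written list of 45 gene symbols, by matching each symbol to the gene names in the deposited count tables. A total of 44 symbols matched 1 gene each, out of 32545 genes in the tables. Ccnb2, which encodes a B-type cyclin, was not matched and is not analysed here. All 44 genes had enough counts to pass the filter on low counts, and they are 44 of the 15655 genes tested. The list covered activators and substrates of the anaphase-promoting complex, the spindle checkpoint, mitotic cyclins and kinases, the outer kinetochore, kinesin motors, spindle assembly, cytokinesis, and chromosome structure and transcription.

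As background, entry into mitosis is driven by the kinase Cdk1 with its cyclins, which Cdc25 phosphatases switch on. The kinetochore is the protein assembly on each centromere that grips spindle microtubules, and the spindle checkpoint holds back the anaphase-promoting complex, a ubiquitin ligase, until all kinetochores are attached. Many of these transcripts are made late in the cell cycle and are scarce in cells that have stopped dividing. Heart muscle cells of the rat leave the cell cycle soon after birth, while fibroblasts and other cells of the heart can go on dividing in culture.

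RNA was sequenced from cultured neonatal rat ventricular myocytes, the muscle cells of the heart ventricle, taken from 1-day-old Sprague-Dawley rats. Per the labels' protocols, cells were preplated to take out fibroblasts, pooled, plated on fibronectin with serum, and then kept in serum-free medium with insulin, transferrin and selenium. Rosiglitazone, an activator of the nuclear receptor PPARγ, was given at 10 µmol/L in 1% DMSO, and DMSO is the solvent. The groups were 1 library of 1% DMSO at 0.5 h, and 2 libraries each of 10 µmol/L rosiglitazone in 1% DMSO at 0.5, 24 and 48 h. DMSO at 24 or 48 h is not analysed here, so time with the drug and time in culture cannot be told apart in any comparison between times. All comparisons with 0.5 h of rosiglitazone share its 2 libraries.

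Libraries held 10886559 to 28074620 counts, and replicate 2 of 48 h was the shallowest. Each library came as 2 splits, which were summed and counted as 1 sample, since they differed by no more than the noise of sampling (chi-square 0.963 to 1.02 per degree of freedom, smallest p 0.112). The labels do not state whether replicate libraries are separate cultures. P-values thus measure a spread between libraries that may be technical. Levels are given as CPM, read counts relative to library size after TMM scaling. CPM values are not per length and are compared only between libraries of the same gene. A count of 0 allows up to 3 counts, 0.107 to 0.276 CPM before scaling, which covers counting error only. Adjusted p-values are from edgeR's quasi-likelihood test with Benjamini-Hochberg adjustment over all 15655 genes, at a threshold of 0.05. A gene is said to have fallen or risen only where it passed this threshold. A gene that did not pass may still have had a lower or higher level. The standard error (SE) of a log2 fold change was taken from its F statistic.

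The summed level of the 44 genes was 2551 CPM in the DMSO library. With rosiglitazone it was 2500 and 1889 CPM at 0.5 h, 608 and 308 CPM at 24 h, and 112 and 164 CPM at 48 h. The 3 libraries of 0.5 h therefore stood above both of 24 h, and both of 24 h stood above both of 48 h. As a share of all counts, the genes held 0.258% in DMSO, 0.253% and 0.190% at 0.5 h, 0.0571% and 0.0324% at 24 h, and 0.0111% and 0.0162% at 48 h of rosiglitazone. In bulk RNA, fewer cells of a type and less RNA per cell cannot be told apart.

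**Figure D1:**
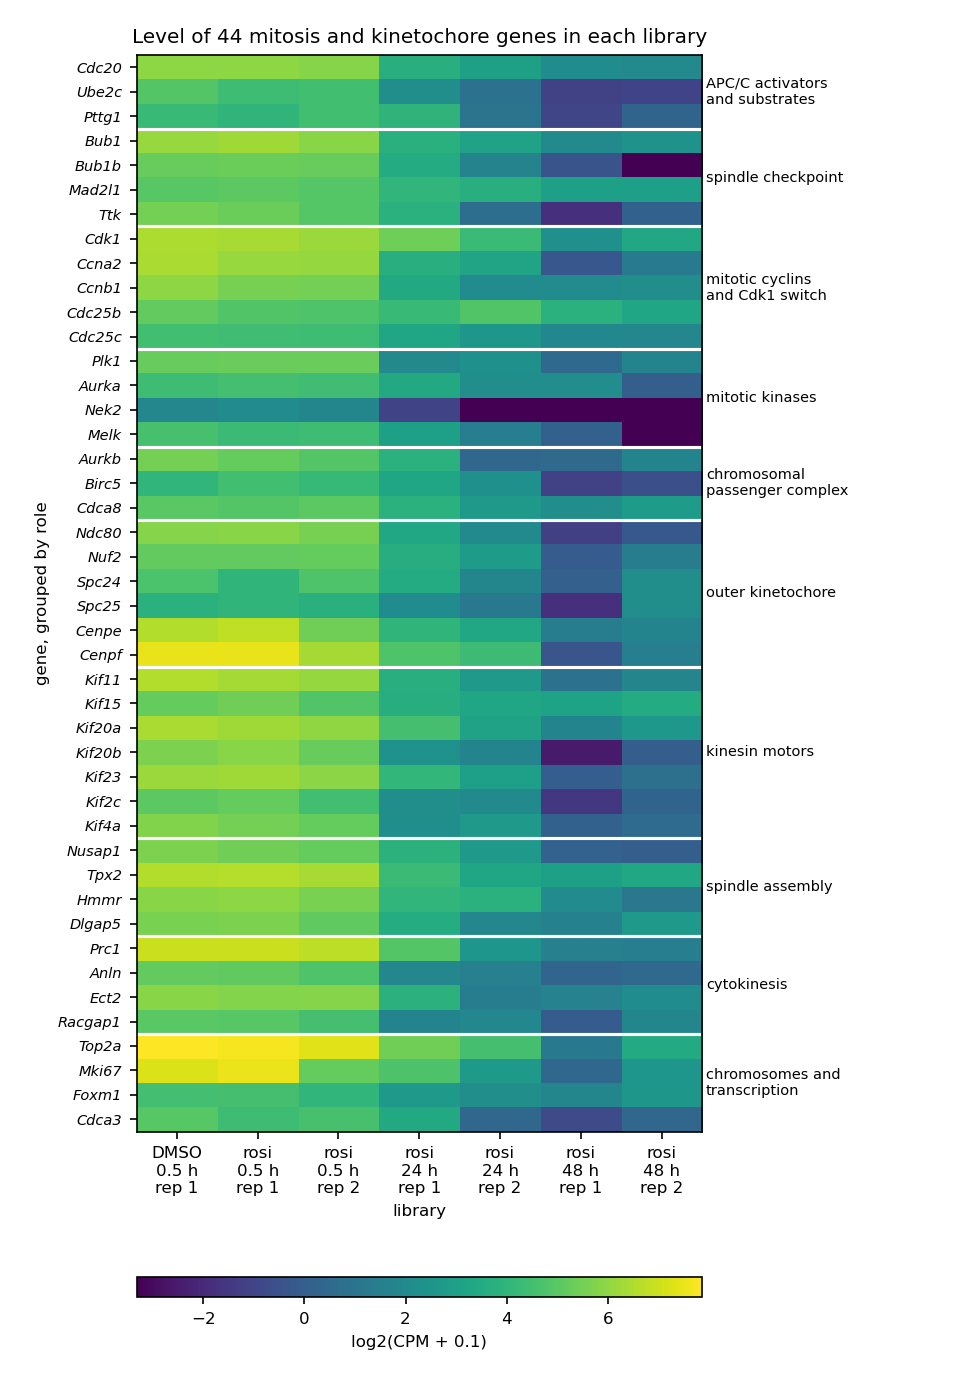
Level of each of the 44 genes (rows, grouped by role) in each of the 7 libraries (columns), as log2(CPM + 0.1); rosi stands for rosiglitazone. The 3 columns of 0.5 h are bright, those of 24 h darker, and those of 48 h darkest in most rows, while Cdc25b, Kif15 and Mad2l1 change least in colour.

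Set against the mean of the 0.5 h rosiglitazone libraries, the mean level left at 24 h was 5.19% to 86.2% of it, with a median over the 44 genes of 18.3%. At 48 h the mean level left was 0% to 43.2%, with a median of 4.26%. A total of 28 genes were under 25% at 24 h and 42 were under 25% at 48 h, where 23 were under 5%. The 2 genes that kept most at 48 h were Cdc25b, with 43.2% of its 0.5 h mean, and Kif15, with 28.9%.

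At 48 h against 0.5 h of rosiglitazone, 38 of the 44 genes fell and 0 rose, while 4.62% of all genes tested were called lower and 1.97% higher. All 44 had a negative log2 fold change and an unadjusted p under 0.05, against 13.3% of all genes lower at that level. A negative log2 fold change at any p was found for 52.8% of all genes tested. The libraries of both times did not overlap for any of the 44 genes, all lower at 48 h, as for 34.4% of all genes tested. The median log2 fold change was -4.59 over the 44 genes and -0.07 over all genes tested. It was -4.36 when Nek2, with 0 counts in both 48 h libraries, was set to its bound. The 6 genes that did not pass the threshold were Cdc25b, Spc25, Spc24, Nek2, Aurkb and Aurka. DESeq2 called 43 of the 44 lower, against 12.0% of genes given an adjusted p. The number of calls rested on single libraries. Without replicate 1 of 48 h, 0 genes passed by edgeR, with a smallest adjusted p of 0.0579 (Ccna2), although all 44 log2 fold changes stayed negative and 43 had an unadjusted p under 0.05. Fewer of the 44 also passed without replicate 1 or 2 of 0.5 h rosiglitazone, without the DMSO library, or without replicate 2 of 48 h. In these fits fewer of all genes were called lower too, and all 44 log2 fold changes stayed negative.

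**Figure D2:**
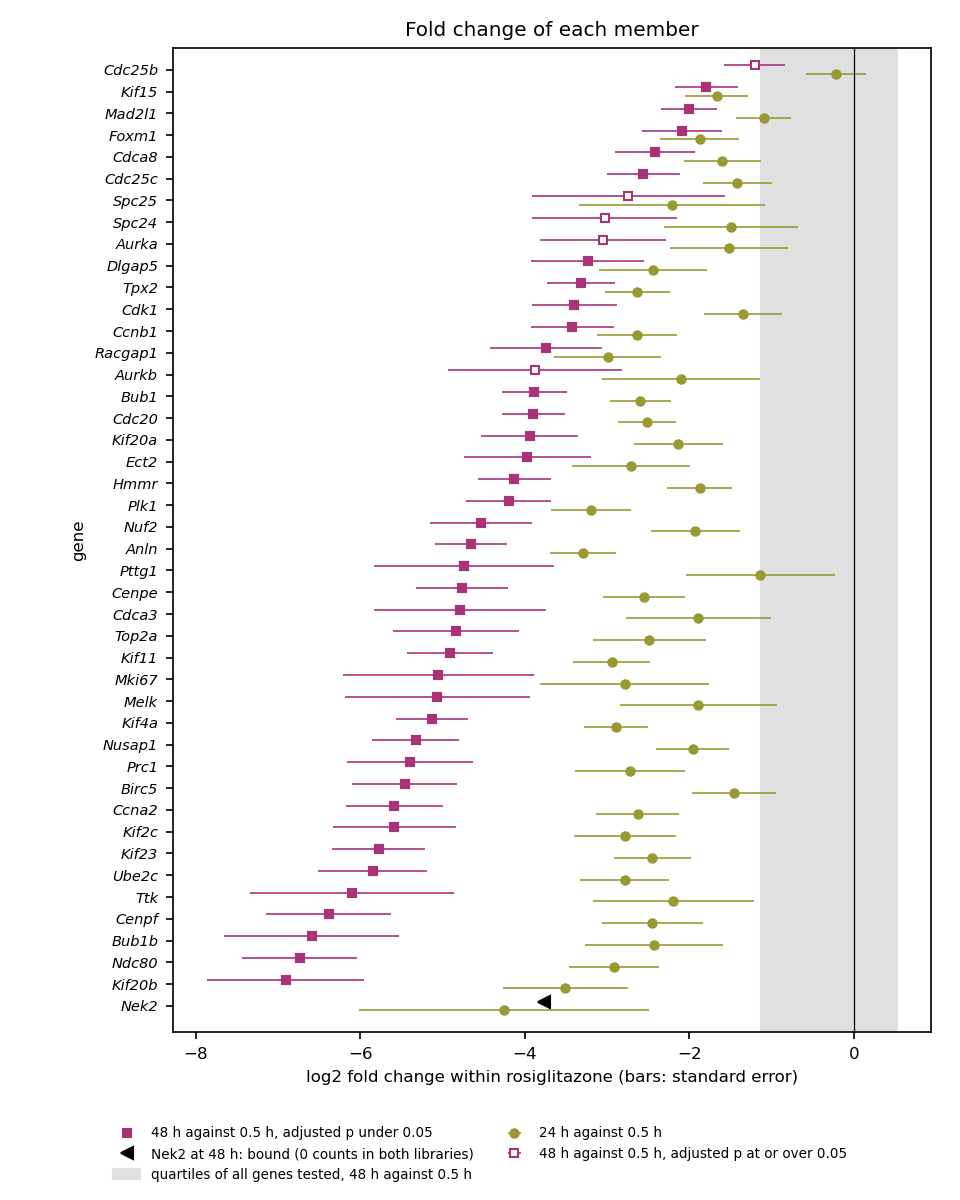
Log2 fold change of each gene at 48 h (squares) and at 24 h (circles), each against 0.5 h of rosiglitazone, with standard errors as bars; filled squares have an adjusted p under 0.05. Squares lie between -1.21 for Cdc25b and -6.90 for Kif20b, Nek2 at 48 h is drawn as a bound at -3.76, and the grey band spans the quartiles of all genes tested at 48 h (-1.13 to 0.52).

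Activators and substrates of the anaphase-promoting complex were among the genes that fell. Cdc20, which switches the complex on at the start of anaphase, was at 63.0 CPM in DMSO, 62.5 and 57.2 CPM at 0.5 h, 12.9 and 8.07 CPM at 24 h, and 4.28 and 3.72 CPM at 48 h. Libraries of 1 group stayed close for Cdc20, and no 2 times overlapped. It was lower at 48 h than at 0.5 h by a log2 fold change of -3.90 ± 0.38 SE (adjusted p = 0.00649). Ube2c, the ubiquitin-conjugating enzyme that works with the complex, was at 29.0 CPM in DMSO, 20.7 and 22.3 CPM at 0.5 h, 4.46 and 1.77 CPM at 24 h, and 0.366 and 0.372 CPM at 48 h. Its log2 fold change at 48 h was -5.85 ± 0.66 SE (adjusted p = 0.00975). Pttg1, or securin, which holds separase inactive until the complex destroys it, was at 18.5 CPM in DMSO, 16.0 and 22.2 CPM at 0.5 h, 15.5 and 1.85 CPM at 24 h, and 0.403 and 1.12 CPM at 48 h. Replicate 1 of 24 h was close to the 0.5 h libraries for Pttg1, and replicate 2 was close to those of 48 h. At 48 h Pttg1 had a log2 fold change of -4.74 ± 1.09 SE (adjusted p = 0.0476).

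All 4 spindle checkpoint genes fell at 48 h. The checkpoint kinase gene Bub1 was at 71.3 CPM in DMSO, 77.1 and 58.4 CPM at 0.5 h, 13.8 and 8.63 CPM at 24 h, and 4.03 and 5.21 CPM at 48 h. Bub1b, whose product binds Cdc20 in the mitotic checkpoint complex, was at 38.1 CPM in DMSO, 41.0 and 38.2 CPM at 0.5 h, 11.6 and 3.13 CPM at 24 h, and 0.659 and 0 CPM at 48 h, with 0 counts in replicate 2 of 48 h. For both genes every later library was below every 0.5 h library. Mad2l1, the checkpoint protein that closes around Cdc20, was at 31.2 CPM in DMSO, 32.6 and 30.4 CPM at 0.5 h, 16.4 and 13.0 CPM at 24 h, and 7.80 and 7.90 CPM at 48 h. Ttk, the kinase that starts checkpoint signalling at unattached kinetochores, was at 45.5 CPM in DMSO, 41.0 and 30.3 CPM at 0.5 h, 14.1 and 1.55 CPM at 24 h, and 0.183 and 1.02 CPM at 48 h. Mad2l1 differed least between times, and the 24 h libraries lay far apart for Ttk. The log2 fold change at 48 h was -3.88 ± 0.40 SE (adjusted p = 0.00683) for Bub1 and -6.59 ± 1.06 SE (adjusted p = 0.0177) for Bub1b. It was -2.00 ± 0.34 SE (adjusted p = 0.0203) for Mad2l1 and -6.10 ± 1.24 SE (adjusted p = 0.0342) for Ttk.

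Of the 5 genes of the Cdk1 switch, 4 fell at 48 h. Cdk1, the kinase that drives mitosis, was at 89.7 CPM in DMSO, 83.9 and 72.3 CPM at 0.5 h, 42.1 and 19.4 CPM at 24 h, and 4.87 and 10.1 CPM at 48 h. Its partner Ccna2, or cyclin A, was at 88.0 CPM in DMSO, 69.8 and 67.4 CPM at 0.5 h, 13.1 and 9.08 CPM at 24 h, and 0.732 and 2.32 CPM at 48 h. Ccnb1, or cyclin B, was at 61.6 CPM in DMSO, 47.9 and 45.4 CPM at 0.5 h, 10.8 and 4.15 CPM at 24 h, and 4.14 and 4.56 CPM at 48 h. Cdk1 and Ccna2 were ordered by time with no overlap within rosiglitazone, while for Ccnb1 replicate 2 of 24 h was level with both 48 h libraries. The Cdk1-activating phosphatase gene Cdc25b was at 36.4 CPM in DMSO, 28.0 and 27.4 CPM at 0.5 h, 19.1 and 28.7 CPM at 24 h, and 14.2 and 9.67 CPM at 48 h. Its relative Cdc25c was at 22.4 CPM in DMSO, 21.5 and 20.6 CPM at 0.5 h, 9.70 and 6.03 CPM at 24 h, and 3.59 and 3.53 CPM at 48 h. Cdc25b at 24 h overlapped its 0.5 h libraries, the only gene of the 44 for which these times overlapped, and it lay lower at 48 h. Log2 fold changes at 48 h were -3.40 ± 0.52 SE (adjusted p = 0.0161) for Cdk1, -5.59 ± 0.59 SE (adjusted p = 0.00719) for Ccna2 and -3.43 ± 0.51 SE (adjusted p = 0.0156) for Ccnb1. Cdc25c had -2.56 ± 0.44 SE (adjusted p = 0.0203), and Cdc25b did not pass the threshold (-1.21 ± 0.37 SE, adjusted p = 0.102).

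Of 4 further mitotic kinase genes, Plk1, Melk, Aurka and Nek2, 2 passed the threshold as lower at 48 h. Plk1, which acts at centrosomes, kinetochores and the midbody, was at 38.8 CPM in DMSO, 39.6 and 40.1 CPM at 0.5 h, 3.80 and 4.86 CPM at 24 h, and 1.32 and 3.16 CPM at 48 h. Melk, a kinase of proliferating cells, was at 24.1 CPM in DMSO, 19.6 and 20.6 CPM at 0.5 h, 8.17 and 2.64 CPM at 24 h, and 1.02 and 0 CPM at 48 h. At 24 h Plk1 was at 10.9% of its 0.5 h mean, whereas for Melk replicate 1 of 24 h lay well above replicate 2. Their log2 fold changes at 48 h were -4.20 ± 0.52 SE (adjusted p = 0.0112) for Plk1 and -5.07 ± 1.13 SE (adjusted p = 0.0438) for Melk. Aurka, the kinase of spindle poles, was at 20.6 CPM in DMSO, 23.3 and 21.7 CPM at 0.5 h, 11.1 and 4.56 CPM at 24 h, and 4.32 and 0.930 CPM at 48 h, and its log2 fold change at 48 h did not pass (-3.05 ± 0.76 SE, adjusted p = 0.0589). Nek2, which acts in centrosome separation, had the fewest counts of the 44, at 3.57 CPM in DMSO, 4.12 and 3.45 CPM at 0.5 h, 0.393 and 0 CPM at 24 h, and 0 and 0 CPM at 48 h. With 0 counts in both 48 h libraries, Nek2 was at least 13.6-fold lower at 48 h than at 0.5 h, set against 3 counts in the shallower of both libraries (adjusted p = 0.0876).

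The chromosomal passenger complex corrects faulty attachments at centromeres and then moves to the central spindle. Its kinase gene Aurkb was at 45.5 CPM in DMSO, 36.7 and 29.0 CPM at 0.5 h, 14.1 and 1.24 CPM at 24 h, and 1.35 and 3.25 CPM at 48 h. Replicate 2 of 24 h was as low as the 48 h libraries for Aurkb and replicate 1 was not, and the change at 48 h did not pass (-3.88 ± 1.05 SE, adjusted p = 0.0735). Birc5, or survivin, was at 16.5 CPM in DMSO, 21.8 and 17.8 CPM at 0.5 h, 9.62 and 4.75 CPM at 24 h, and 0.366 and 0.558 CPM at 48 h. Cdca8, or borealin, was at 32.2 CPM in DMSO, 29.0 and 33.1 CPM at 0.5 h, 13.9 and 6.60 CPM at 24 h, and 4.58 and 7.16 CPM at 48 h. Birc5 and Cdca8 fell at 48 h, with log2 fold changes of -5.46 ± 0.64 SE (adjusted p = 0.0105) for Birc5 and -2.41 ± 0.49 SE (adjusted p = 0.0332) for Cdca8.

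Of the 6 outer kinetochore genes, 4 fell at 48 h. Ndc80, the microtubule-binding subunit that names the Ndc80 complex, was at 57.1 CPM in DMSO, 58.2 and 47.1 CPM at 0.5 h, 10.1 and 3.84 CPM at 24 h, and 0.329 and 0.744 CPM at 48 h. Its partner Nuf2 was at 35.7 CPM in DMSO, 36.6 and 37.3 CPM at 0.5 h, 12.4 and 7.01 CPM at 24 h, and 0.842 and 2.51 CPM at 48 h. For both, every 24 h library was below every 0.5 h library, and every 48 h library was lower still. Spc24, a subunit that ties the complex to the inner kinetochore, was at 25.6 CPM in DMSO, 15.7 and 27.3 CPM at 0.5 h, 11.8 and 3.43 CPM at 24 h, and 0.988 and 4.46 CPM at 48 h. Its partner Spc25 was at 14.1 CPM in DMSO, 16.1 and 13.7 CPM at 0.5 h, 4.24 and 2.19 CPM at 24 h, and 0.183 and 4.46 CPM at 48 h. For both, replicate 2 of 48 h lay above replicate 2 of 24 h, and neither passed at 48 h. The log2 fold changes at 48 h were -6.74 ± 0.69 SE (adjusted p = 0.00686) for Ndc80 and -4.53 ± 0.62 SE (adjusted p = 0.0136) for Nuf2. They were -3.03 ± 0.88 SE (adjusted p = 0.0880) for Spc24 and -2.74 ± 1.17 SE (adjusted p = 0.217) for Spc25. Cenpe, a kinesin that carries chromosomes to the spindle equator, was at 93.9 CPM in DMSO, 112 and 43.3 CPM at 0.5 h, 15.9 and 10.5 CPM at 24 h, and 2.56 and 3.16 CPM at 48 h. Cenpf, a large kinetochore protein, was at 177 CPM in DMSO, 181 and 80.6 CPM at 0.5 h, 27.8 and 20.1 CPM at 24 h, and 0.695 and 2.70 CPM at 48 h. For both, replicate 2 of 0.5 h was under 50% of replicate 1, and the later libraries were lower still. Cenpe fell with a log2 fold change of -4.77 ± 0.56 SE (adjusted p = 0.0106), and Cenpf with -6.39 ± 0.76 SE (adjusted p = 0.0106).

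All 7 kinesin genes fell at 48 h. Kif11, the motor that pushes spindle poles apart, was at 93.9 CPM in DMSO, 80.8 and 68.4 CPM at 0.5 h, 13.0 and 6.41 CPM at 24 h, and 1.76 and 3.35 CPM at 48 h. Kif15, which helps to keep the spindle bipolar, was at 37.2 CPM in DMSO, 43.1 and 28.3 CPM at 0.5 h, 12.6 and 9.84 CPM at 24 h, and 8.93 and 11.7 CPM at 48 h. Kif11 was lower at each later time, whereas Kif15 was at about the same level at 24 and 48 h. Kif20a, which moves the chromosomal passenger complex to the central spindle, was at 86.0 CPM in DMSO, 77.6 and 64.9 CPM at 0.5 h, 23.8 and 8.59 CPM at 24 h, and 3.18 and 6.23 CPM at 48 h. Kif20b, a relative that acts in cytokinesis, was at 50.4 CPM in DMSO, 58.3 and 37.9 CPM at 0.5 h, 5.20 and 3.24 CPM at 24 h, and 0.0732 and 0.930 CPM at 48 h. Kif23, the motor subunit of centralspindlin, was at 73.4 CPM in DMSO, 76.9 and 59.7 CPM at 0.5 h, 17.0 and 7.91 CPM at 24 h, and 0.915 and 1.67 CPM at 48 h. The 48 h libraries of these 3 genes were all below their 24 h libraries. Kif2c, which takes microtubule ends apart, was at 32.7 CPM in DMSO, 36.9 and 22.2 CPM at 0.5 h, 4.55 and 4.03 CPM at 24 h, and 0.256 and 1.12 CPM at 48 h. Kif4a, a motor on chromosome arms and the central spindle, was at 53.9 CPM in DMSO, 45.8 and 37.5 CPM at 0.5 h, 4.59 and 6.60 CPM at 24 h, and 1.02 and 1.39 CPM at 48 h. Kif4a had the smallest adjusted p of the 44 genes, with a log2 fold change of -5.13 ± 0.44 SE (adjusted p = 0.00521). Log2 fold changes at 48 h were -5.78 ± 0.56 SE (adjusted p = 0.00659) for Kif23, -4.91 ± 0.52 SE (adjusted p = 0.00726) for Kif11 and -5.59 ± 0.74 SE (adjusted p = 0.0128) for Kif2c. They were -6.90 ± 0.95 SE (adjusted p = 0.0136) for Kif20b, -3.94 ± 0.59 SE (adjusted p = 0.0158) for Kif20a and -1.79 ± 0.38 SE (adjusted p = 0.0392) for Kif15.

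**Figure D3:**
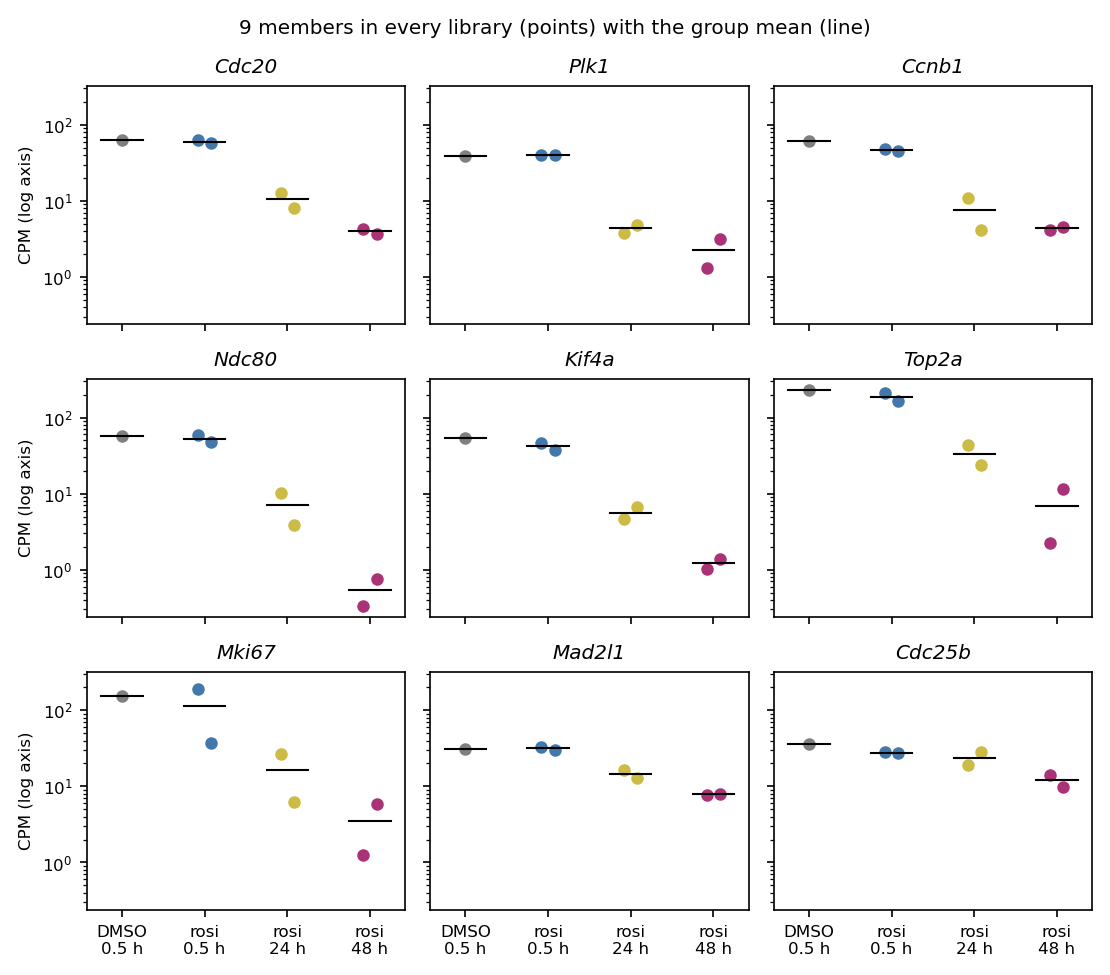
CPM (log axis) of 9 of the 44 genes in every library, as points, with the group mean as a line; rosi stands for rosiglitazone. Most panels step down at 24 h and again at 48 h, Mki67 has 188 and 36.8 CPM in the 0.5 h rosiglitazone libraries, and Cdc25b at 24 h overlaps its 0.5 h level.

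All 4 spindle assembly genes fell at 48 h. Nusap1, which bundles microtubules near chromosomes, was at 50.1 CPM in DMSO, 43.6 and 37.5 CPM at 0.5 h, 14.3 and 6.52 CPM at 24 h, and 1.06 and 0.930 CPM at 48 h. Tpx2, which activates Aurka on spindle microtubules, was at 95.2 CPM in DMSO, 97.2 and 84.6 CPM at 0.5 h, 19.4 and 9.84 CPM at 24 h, and 8.13 and 10.1 CPM at 48 h. The 48 h libraries lay below those of 24 h for Nusap1 and overlapped them for Tpx2. Hmmr, a spindle-associated protein, was at 58.9 CPM in DMSO, 62.4 and 48.8 CPM at 0.5 h, 16.3 and 13.9 CPM at 24 h, and 4.17 and 2.05 CPM at 48 h. Dlgap5, which stabilises fibres to the kinetochore, was at 48.6 CPM in DMSO, 50.3 and 35.1 CPM at 0.5 h, 12.2 and 3.50 CPM at 24 h, and 2.89 and 6.32 CPM at 48 h. Hmmr followed the order of the times, and Dlgap5 at 24 and 48 h overlapped. The log2 fold changes at 48 h were -5.33 ± 0.53 SE (adjusted p = 0.00664) for Nusap1 and -3.32 ± 0.41 SE (adjusted p = 0.0111) for Tpx2. They were -4.13 ± 0.44 SE (adjusted p = 0.00760) for Hmmr and -3.24 ± 0.68 SE (adjusted p = 0.0383) for Dlgap5.

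All 4 cytokinesis genes fell at 48 h as well. Prc1, which crosslinks microtubules of the central spindle, was at 124 CPM in DMSO, 126 and 107 CPM at 0.5 h, 29.5 and 5.84 CPM at 24 h, and 2.82 and 2.70 CPM at 48 h. Anln, or anillin, which organises the contractile ring, was at 36.2 CPM in DMSO, 34.8 and 27.3 CPM at 0.5 h, 3.54 and 2.79 CPM at 24 h, and 1.17 and 1.30 CPM at 48 h. Anln had close replicates at each time, while replicate 2 of 24 h was far below replicate 1 for Prc1. Ect2, the exchange factor that activates RhoA at the cell equator, was at 59.2 CPM in DMSO, 55.9 and 56.3 CPM at 0.5 h, 14.6 and 2.60 CPM at 24 h, and 3.04 and 4.18 CPM at 48 h. Racgap1, the partner of Kif23 in centralspindlin, was at 32.0 CPM in DMSO, 31.2 and 23.7 CPM at 0.5 h, 3.23 and 3.66 CPM at 24 h, and 0.842 and 3.44 CPM at 48 h. Ect2 and Racgap1 reached about their 48 h range in at least 1 library of 24 h. The log2 fold changes at 48 h were -5.39 ± 0.77 SE (adjusted p = 0.0148) for Prc1 and -4.65 ± 0.44 SE (adjusted p = 0.00649) for Anln. They were -3.97 ± 0.77 SE (adjusted p = 0.0300) for Ect2 and -3.74 ± 0.68 SE (adjusted p = 0.0255) for Racgap1.

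Chromosome and transcription genes of the list all fell at 48 h. Top2a, the topoisomerase that untangles chromosomes, was at 233 CPM in DMSO, 211 and 165 CPM at 0.5 h, 43.6 and 23.6 CPM at 24 h, and 2.23 and 11.3 CPM at 48 h. Mki67, whose product Ki-67 coats mitotic chromosomes and marks dividing cells, was at 153 CPM in DMSO, 188 and 36.8 CPM at 0.5 h, 26.3 and 6.26 CPM at 24 h, and 1.24 and 5.86 CPM at 48 h. Top2a was high in all 3 libraries of 0.5 h, but Mki67 in replicate 2 of 0.5 h was much nearer to replicate 1 of 24 h than to its own replicate. Foxm1, a transcription factor of mitotic genes, was at 23.1 CPM in DMSO, 23.4 and 16.2 CPM at 0.5 h, 6.25 and 4.52 CPM at 24 h, and 3.44 and 5.95 CPM at 48 h. Cdca3, linked to entry into mitosis, was at 31.4 CPM in DMSO, 20.7 and 24.4 CPM at 0.5 h, 10.9 and 1.28 CPM at 24 h, and 0.512 and 1.21 CPM at 48 h. Foxm1 was at a like level at 24 and 48 h. The log2 fold changes at 48 h were -4.84 ± 0.77 SE (adjusted p = 0.0168) for Top2a and -5.05 ± 1.16 SE (adjusted p = 0.0476) for Mki67. They were -2.09 ± 0.49 SE (adjusted p = 0.0488) for Foxm1 and -4.79 ± 1.04 SE (adjusted p = 0.0410) for Cdca3.

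Rosiglitazone against DMSO at 0.5 h is the comparison with a vehicle library of the same time, and no mitosis gene was called in it. By edgeR, 0 of 44 genes and 0% of all genes tested passed, 0 of 44 had an unadjusted p under 0.05 (0.498% of all genes lower, 0.109% higher), and DESeq2 called 0 of 44. The log2 fold change was negative for 35 genes and positive for 9, beside 47.2% negative over all genes tested. Its median over the 44 genes was -0.17, against 0.01 over all genes tested. It ranged from -0.48 for Cdca3 to 0.27 for Birc5. In 19 genes both rosiglitazone libraries were below the DMSO library, as in 31.8% of all genes, and in 5 both were above it, as in 30.2%. The 3 smallest p-values belonged to Cdc25b (log2 fold change -0.40 ± 0.44 SE), Kif4a (-0.37 ± 0.43 SE) and Ccnb1 (-0.40 ± 0.55 SE), each with an adjusted p of 1. The median was -0.34 without replicate 1 of 0.5 h rosiglitazone and 0.0033 without replicate 2, where 22 of the 44 were negative. With 1 DMSO library, a difference between conditions and a difference between libraries cannot be told apart.

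At 24 h against 0.5 h of rosiglitazone, all 44 genes had a lower fitted level, as did 51.2% of all genes tested. By edgeR 0 of the 44 passed the threshold, where 0.0447% of all genes were called lower and 0.0511% higher. An unadjusted p under 0.05 was found for 35 genes, all lower, against 9.12% of all genes lower. Both 24 h libraries lay below both 0.5 h libraries for 43 genes, all but Cdc25b, as for 28.9% of all genes. The median log2 fold change was -2.45, against -0.03 over all genes tested. The smallest adjusted p-values belonged to Anln (-3.29 ± 0.41 SE, adjusted p = 0.0531), Kif4a (-2.89 ± 0.38 SE, adjusted p = 0.0659) and Cdc20 (-2.52 ± 0.35 SE, adjusted p = 0.0678). The log2 fold change was nearest to 0 for Cdc25b (-0.21 ± 0.36 SE, adjusted p = 0.813) and farthest for Nek2 (-4.25 ± 1.76 SE, adjusted p = 0.317). Nek2 had only 9 and 0 counts at 24 h, and the next farthest was Kif20b (-3.51 ± 0.76 SE, adjusted p = 0.108). Libraries of 24 h differed from each other, with replicate 2 below replicate 1 for 40 of the 44 genes by a median of 1.01 on the log2 scale. Over all genes tested that median difference was 0. DESeq2 called 32 genes lower, against 5.48% of genes given an adjusted p. Without replicate 1 of 24 h the median was -2.95, and without replicate 2 of 24 h it was -1.90. In both fits edgeR called more of the 44 and more of all genes lower. There the lone 24 h library was assumed to vary like the other groups.

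At 48 h against 24 h of rosiglitazone, all 44 genes again had a lower fitted level, as did 50.8% of all genes tested. By edgeR 0 of the 44 passed the threshold, as for 0% of all genes. A total of 29 genes had an unadjusted p under 0.05, all lower, against 5.34% of all genes lower. Both 48 h libraries lay below both 24 h libraries for 32 genes, as for 14.6% of all genes. The 12 genes whose libraries overlapped were Ccnb1, Nek2, Aurkb, Cdca8, Spc24, Spc25, Kif15, Tpx2, Dlgap5, Ect2, Racgap1 and Foxm1. The median log2 fold change was -2.13, or -2.05 without Nek2, which was at or under the floor at both times, against -0.01 over all genes tested. The smallest adjusted p-values belonged to Nusap1 (-3.37 ± 0.50 SE, adjusted p = 0.272), Birc5 (-4.00 ± 0.61 SE, adjusted p = 0.273) and Kif23 (-3.32 ± 0.52 SE, adjusted p = 0.273). Of genes above the floor, the log2 fold change was farthest from 0 for Bub1b (-4.16 ± 0.99 SE, adjusted p = 0.293) and nearest for Kif15 (-0.12 ± 0.37 SE, adjusted p = 0.993). DESeq2 called 22 genes lower, against 2.51% of genes given an adjusted p. Without replicate 2 of 24 h, all 44 log2 fold changes were negative, and edgeR called more of the 44 and more of all genes lower. Without replicate 1 of 24 h the median was -1.18 and 37 of the 44 log2 fold changes were negative. Without replicate 1 of 48 h 41 were negative.

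The 4 libraries of 24 and 48 h were also set against all 3 libraries of 0.5 h, DMSO included. Of the 44 genes, 41 fell and 0 rose, while 7.29% of all genes tested were called lower and 4.11% higher. Spc24 (-2.35 ± 0.62 SE, adjusted p = 0.0526), Spc25 (-2.45 ± 0.85 SE, adjusted p = 0.106) and Cdc25b (-0.84 ± 0.28 SE, adjusted p = 0.0934) did not pass. The median log2 fold change was -3.41, against -0.07 over all genes tested, and all 4 late libraries lay below all 3 early libraries for 43 genes, as for 19.5% of all genes. The smallest adjusted p-values belonged to Kif4a (-4.14 ± 0.30 SE, adjusted p = 0.00201), Anln (-4.05 ± 0.31 SE, adjusted p = 0.00220) and Cdc20 (-3.23 ± 0.27 SE, adjusted p = 0.00313). Aurka, Aurkb and Nek2, which did not pass at 48 h against 0.5 h alone, fell here, with -2.24 ± 0.54 SE (adjusted p = 0.0400) for Aurka and -3.15 ± 0.74 SE (adjusted p = 0.0366) for Aurkb. For Nek2 the adjusted p was 0.0434, with 9 counts in replicate 1 of 24 h and 0 counts in the other late libraries, and no fold change is given at this depth. DESeq2 called 44 of 44 lower, against 13.8% of genes given an adjusted p. EdgeR called fewer of the 44 and fewer of all genes lower without replicate 1 or 2 of 0.5 h rosiglitazone. The same held without the DMSO library and without replicate 1 or 2 of 48 h. All 44 log2 fold changes stayed negative in each of these fits. In the fit reported all 44 were negative too, beside 53.1% of all genes tested.

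The authors' deposited table for rosiglitazone against DMSO at 0.5 h gives 6 of the 44 genes as lower at an adjusted p under 0.05 and 0 as higher, against 5.96% of its genes lower and 5.07% higher. In the authors' deposited table those 6 are Ube2c, Ccna2, Ccnb1, Cdc25b, Aurkb and Cdca3, with log2 fold changes of -0.40, -0.35, -0.38, -0.37, -0.42 and -0.44 in the same order. For 24 h against 0.5 h the authors' deposited table gives 42 of 44 as lower, all but Pttg1 and Cdc25b, against 21.2% of its genes. For 48 h against 24 h the authors' deposited table gives 30 of the 43 genes that have an adjusted p as lower, against 9.46% of its genes. How that test treated the 2 splits of a library is not given in the sources used here.

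Replicates of a group lay far apart for some of these genes. Between the 0.5 h rosiglitazone libraries 3 of the 44 genes were over 2-fold apart, namely Mki67, Cenpe and Cenpf, each lower in replicate 2. Between the 24 h libraries 23 genes were over 2-fold apart, and between the 48 h libraries 20 were. At 48 h replicate 2 was the higher library for 34 genes and the lower for 9, with a median difference of 0.70 on the log2 scale. Over all genes tested the median difference between replicates was 0 at each time. The standard deviation of this log2 difference over all genes tested was 0.77, 1.53 and 1.17 at 0.5, 24 and 48 h. Over the 44 genes it was 0.48, 0.95 and 1.34. Genes with 0 counts were Nek2 in replicate 2 of 24 h and in both 48 h libraries, and Bub1b and Melk in replicate 2 of 48 h, the shallowest library.

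Other genes of the same machinery were taken from 5 written lists that share no gene with the 44. In the list of other spindle and division genes, 26 of 40 fell at 48 h against 0.5 h and 0 rose, with a median log2 fold change of -3.86, beside the 4.62% of all genes called lower. Aspm, which acts at spindle poles, was at 56.7 CPM in DMSO, 67.5 and 45.8 CPM at 0.5 h, 9.49 and 5.88 CPM at 24 h, and 1.35 and 3.53 CPM at 48 h (-4.59 ± 0.58 SE, adjusted p = 0.0118). Plk4, the kinase that starts centriole copying, was at 45.2 CPM in DMSO, 44.0 and 32.2 CPM at 0.5 h, 10.1 and 5.31 CPM at 24 h, and 3.59 and 3.44 CPM at 48 h (-3.44 ± 0.46 SE, adjusted p = 0.0128). Every late library was below every 0.5 h library for both. Stil, another centriole gene, also fell (-4.43 ± 0.53 SE, adjusted p = 0.0106). Cdc25a, a Cdc25 phosphatase that also acts earlier in the cycle, was at 43.6 CPM in DMSO, 41.4 and 37.2 CPM at 0.5 h, 56.9 and 68.0 CPM at 24 h, and 49.1 and 53.7 CPM at 48 h, and its difference did not pass (0.39 ± 0.27 SE, adjusted p = 0.447). Kif14, a cytokinesis kinesin with under 1 CPM in each late library, did not pass either (-5.98 ± 1.52 SE, adjusted p = 0.0615).

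Of 29 genes of the inner centromere and the rest of the kinetochore, 8 were called lower and 1 higher, with a median of -2.17. All genes tested had 4.62% called lower and 1.97% higher. Kntc1, a subunit of the complex that brings dynein to kinetochores, was at 49.4 CPM in DMSO, 51.5 and 32.3 CPM at 0.5 h, 9.75 and 8.63 CPM at 24 h, and 3.70 and 1.67 CPM at 48 h, and it fell (-3.92 ± 0.50 SE, adjusted p = 0.0122). Cenpu, of the inner kinetochore, was at 15.3 CPM in DMSO, 14.2 and 15.7 CPM at 0.5 h, 3.02 and 2.19 CPM at 24 h, and 2.49 and 3.35 CPM at 48 h, and it fell too (-2.36 ± 0.50 SE, adjusted p = 0.0390). Its 24 and 48 h libraries overlapped. The gene that rose was Zwint, whose product sits at the kinetochore with Knl1. Zwint was at 116 CPM in DMSO, 121 and 98.4 CPM at 0.5 h, 249 and 549 CPM at 24 h, and 407 and 454 CPM at 48 h, so that every late library was above every 0.5 h library (1.97 ± 0.40 SE, adjusted p = 0.0346). Cenpi, another inner kinetochore gene, did not pass (-4.27 ± 1.52 SE, adjusted p = 0.146). Cenpw, chosen after its values were seen, had 0 counts in both 48 h libraries and was at least 30.3-fold lower than at 0.5 h.

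Of 16 genes listed for the anaphase-promoting complex itself, 1 was called lower and 0 higher, with a median of -0.07. That stands beside 4.62% lower and 1.97% higher over all genes tested. The called gene was Fbxo5, which is an inhibitor of the complex and not a subunit, at 24.1 CPM in DMSO, 26.6 and 22.2 CPM at 0.5 h, 7.39 and 8.22 CPM at 24 h, and 4.28 and 4.37 CPM at 48 h (-2.49 ± 0.39 SE, adjusted p = 0.0163). Anapc11, the RING subunit, was at 53.4 CPM in DMSO, 47.4 and 69.8 CPM at 0.5 h, 160.1 and 98.8 CPM at 24 h, and 96.8 and 166 CPM at 48 h, and its difference did not pass (1.16 ± 0.39 SE, adjusted p = 0.126). With all late libraries against all 0.5 h libraries, Anapc11 was called higher (1.20 ± 0.30 SE, adjusted p = 0.0459), as were 4.11% of all genes. Cdc23, a scaffold subunit, was at 46.5 CPM in DMSO, 46.7 and 40.0 CPM at 0.5 h, 26.1 and 25.5 CPM at 24 h, and 40.6 and 41.2 CPM at 48 h (-0.09 ± 0.27 SE, adjusted p = 0.896).

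Condensin and cohesin genes had 8 of 19 called lower and 0 higher, with a median of -1.38, beside 4.62% of all genes called lower. Condensin, which compacts chromosomes, supplied most of the calls. Its subunit gene Ncapg was at 43.5 CPM in DMSO, 45.3 and 43.4 CPM at 0.5 h, 10.6 and 8.14 CPM at 24 h, and 3.33 and 3.81 CPM at 48 h (-3.64 ± 0.36 SE, adjusted p = 0.00664). Smc2, the condensin ATPase, was at 171 CPM in DMSO, 155 and 152 CPM at 0.5 h, 50.0 and 57.1 CPM at 24 h, and 32.6 and 46.7 CPM at 48 h (-1.95 ± 0.29 SE, adjusted p = 0.0156). Both were lower in every late library than in every 0.5 h library. Ncapg2 (-1.92 ± 0.29 SE, adjusted p = 0.0161) and Ncaph (-5.34 ± 1.01 SE, adjusted p = 0.0277) fell too, as did Sgo2, which guards centromeric cohesin (-4.87 ± 0.89 SE, adjusted p = 0.0251). The condensin genes Ncapd2 (-1.51 ± 0.36 SE, adjusted p = 0.0511) and Ncaph2 (0.33 ± 0.27 SE, adjusted p = 0.505), also named after their values were seen, did not pass. Cohesin ring genes, named after their values were seen, did not pass, with -0.02 ± 0.25 SE (adjusted p = 0.985) for Smc3, -0.09 ± 0.31 SE (adjusted p = 0.907) for Smc1a and -0.52 ± 0.26 SE (adjusted p = 0.285) for Rad21.

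Regulators that bind the promoters of cell cycle genes (the DREAM and MuvB complexes and E2F factors) had 3 of 19 called lower, 0 higher and a median of -0.44. The share called lower was 4.62% over all genes tested. Mybl2, which partners MuvB to activate mitotic genes, was at 36.4 CPM in DMSO, 31.3 and 23.8 CPM at 0.5 h, 4.50 and 3.17 CPM at 24 h, and 1.65 and 2.70 CPM at 48 h (-3.69 ± 0.48 SE, adjusted p = 0.0126). Rbl1, a pocket protein of DREAM, was at 22.9 CPM in DMSO, 20.9 and 19.0 CPM at 0.5 h, 5.20 and 4.26 CPM at 24 h, and 3.84 and 3.25 CPM at 48 h (-2.49 ± 0.42 SE, adjusted p = 0.0201). Both were lower in each late library than in each 0.5 h library. The third was E2f1, an activator of genes for DNA copying, chosen after its values were seen (-1.58 ± 0.37 SE, adjusted p = 0.0485). Lin9, a MuvB subunit, had 0 counts in both 24 h libraries and 0.512 and 0.558 CPM at 48 h, and its difference at 48 h did not pass (-2.49 ± 1.27 SE, adjusted p = 0.308). E2f7, a repressor of the E2F family, did not pass either (-3.39 ± 2.11 SE, adjusted p = 0.391).

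**Figure D4:**
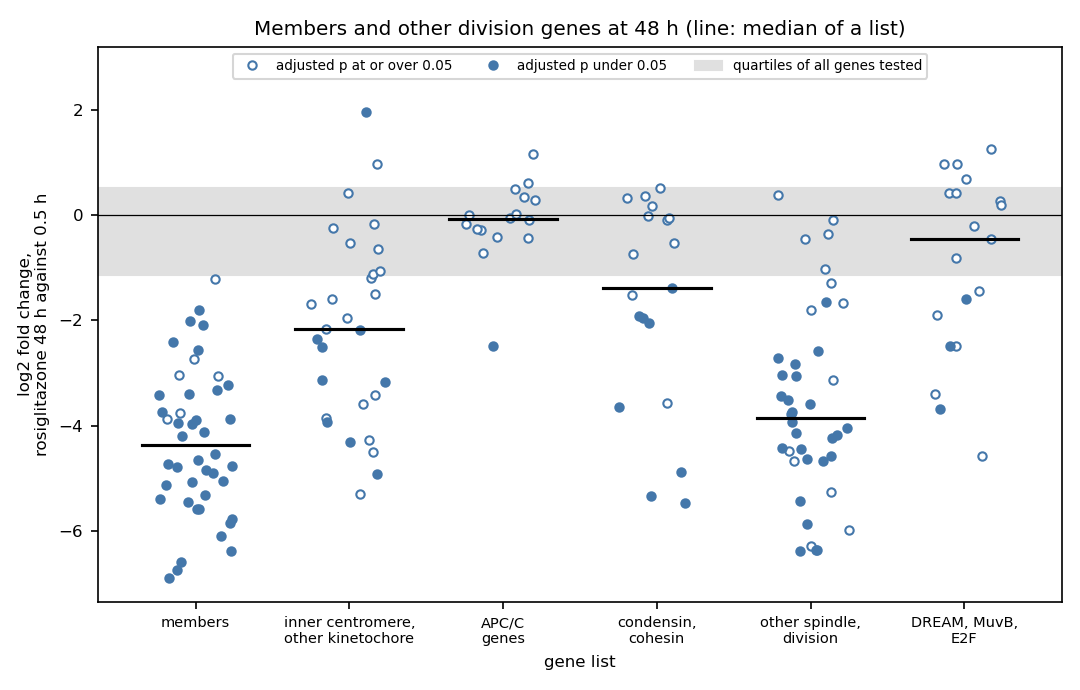
Log2 fold change at 48 h against 0.5 h of rosiglitazone for the 44 genes (members) and the genes of 5 other lists, as points, with the list median as a line; filled points have an adjusted p under 0.05 and the grey band spans the quartiles of all genes tested. Medians are -4.36 for the 44 genes and -3.86 for other spindle and division genes, and -0.07 for anaphase-promoting complex (APC/C) genes; Nek2 and Cenpw are drawn at their bounds.

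Cell type markers were followed beside these genes, because a heart culture can hold several cell types. Cardiomyocyte markers were detected in every library. Their summed level, over 12 genes with none at 0 counts, was 8526 CPM in DMSO, 15462 and 14532 CPM at 0.5 h, 12752 and 3213 CPM at 24 h, and 396 and 1666 CPM at 48 h of rosiglitazone. At 48 h against 0.5 h, 11 of 12 were called lower, beside 4.62% of all genes, with a median log2 fold change of -4.55. Of the most abundant, Actc1, or cardiac actin, had -5.93 ± 1.10 SE (adjusted p = 0.0269), Myh7, a myosin heavy chain, had -5.78 ± 1.14 SE (adjusted p = 0.0311), and Tnnt2, or cardiac troponin T, did not pass (-1.99 ± 0.87 SE, adjusted p = 0.225).

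Fibroblast markers, 10 genes led by the collagens Col1a1 and Col3a1, summed to 51822 CPM in DMSO, 50295 and 51745 CPM at 0.5 h, 35109 and 32793 CPM at 24 h, and 17534 and 33728 CPM at 48 h. At 48 h against 0.5 h, 0 of the 10 were called lower and 1 higher, with a median of -0.97. The called gene was Dcn (2.85 ± 0.41 SE, adjusted p = 0.0149). Called lower and higher were 4.62% and 1.97% of all genes tested, for this list and those below. In replicate 2 of 24 h, 1 of the 10 was at 0 counts. Smooth muscle and pericyte markers, 10 genes led by Acta2 and Tagln, summed to 4416 CPM in DMSO, 5355 and 5216 CPM at 0.5 h, 2225 and 1193 CPM at 24 h, and 456 and 1140 CPM at 48 h. Of these, 5 of 10 were called lower at 48 h against 0.5 h, with a median of -3.21. Endothelial markers, 10 genes led by Tek and Flt1, summed to 209 CPM in DMSO, 232 and 259 CPM at 0.5 h, 129 and 82.8 CPM at 24 h, and 59.2 and 60.3 CPM at 48 h, with 4 of 10 called lower. Macrophage markers, 11 genes led by Mrc1, summed to 669 CPM in DMSO, 208 and 268 CPM at 0.5 h, 142 and 66.6 CPM at 24 h, and 116 and 108 CPM at 48 h, with 3 of 10 tested called lower. Epicardial markers, 10 genes led by Msln, summed to 334 CPM in DMSO, 313 and 326 CPM at 0.5 h, 188 and 73.6 CPM at 24 h, and 67.8 and 82.6 CPM at 48 h, with 5 of 10 called lower. The summed level of all 6 marker lists was lower in both 48 h libraries than in both 0.5 h rosiglitazone libraries, as it was for the mitosis genes. The fibroblast sum came mostly from Col1a1 (26742 and 27691 CPM at 0.5 h of rosiglitazone) and Col3a1 (18347 and 18791 CPM). The fibroblast list's median log2(CPM + 0.1) was instead higher at 48 h (9.10 and 9.94) than at 0.5 h of rosiglitazone (8.44 and 8.73). Besides Dcn, Pdgfra and Lum had positive log2 fold changes without passing, and the other fibroblast markers had negative ones. The part of other cell types in the result was not tested. The sums are over different genes and not per length, so they give no shares of cells.

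**Figure D5:**
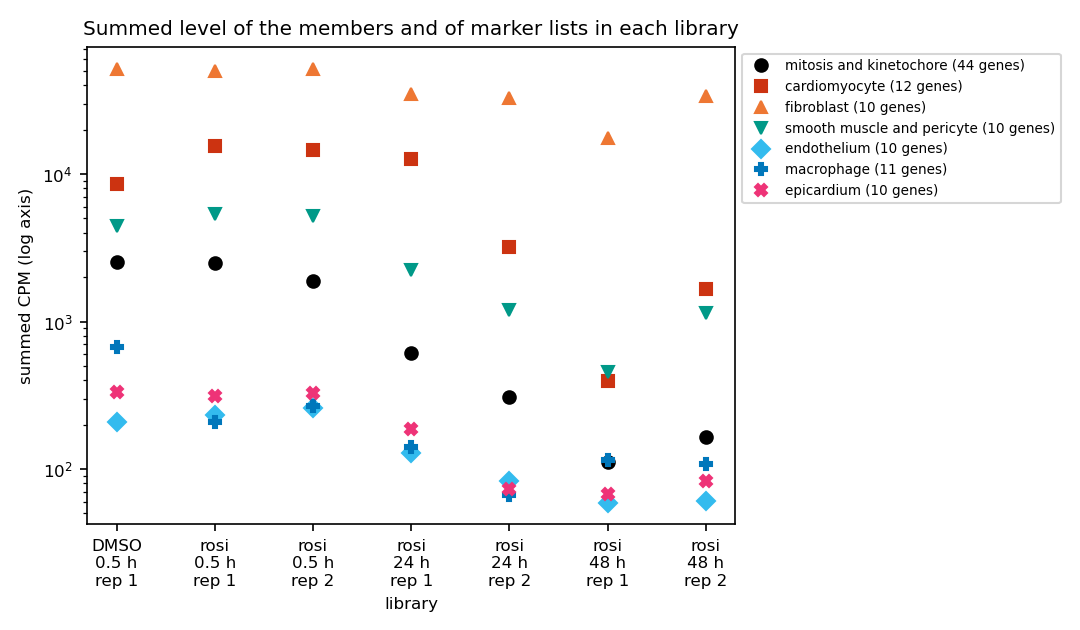
Summed CPM (log axis) of the 44 genes and of 6 cell type marker lists in each library; rosi stands for rosiglitazone. The 44 genes sum to 112 and 164 CPM at 48 h, against 2500 and 1889 CPM at 0.5 h of rosiglitazone, and the cardiomyocyte list to 396 and 1666 CPM at 48 h, against 15462 and 14532 CPM at 0.5 h.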

How the data were processed

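The authors deposited whole-number read counts for each gene in each sample. Their tables also give, per the file headers, the authors' own log2 fold change, standard error, p-value and adjusted p-value. Per the submitters' processing notes, the builds were Rnor_6.0 and hg19, and the tools were HTSeq, DESeq2, cutadapt 1.11 and FastQC 0.11.5. Neither aligner nor strand setting is given in the sources used here, so reads of overlapping genes may be shared. Libraries were made with a directional kit, per the labels' protocols. Gene IDs were rat Ensembl IDs.

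The 14 samples are 7 libraries with 2 splits each, which were summed. Counts were fitted with edgeR 4.0.16 in R 4.3.3 (TMM, filterByExpr, robust quasi-likelihood fit, 4 groups in 1 fit, 3 residual degrees of freedom, common biological coefficient of variation 0.514). Same-numbered libraries were not treated as pairs in this fit. Fold changes of genes at 0 counts in a group are bounds against 3 counts in the group's shallowest library. Ratios of libraries use a pseudocount of 0.1 CPM.

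The 44 genes, the lists and the rule for named genes were chosen with earlier results of these data known. The rule names, with values in every library, 29 key mitotic genes, any gene of the 44 past the threshold, and in each comparison the 3 smallest p-values and the extreme fold changes. Of other lists it takes up to 3 genes with the smallest p at 24 h against 0.5 h and 2 with the most extreme fold change, and the most abundant markers. The list symbols Cenpp, Cenps, Cdca5, Ttn, Col1a2 and Pecam1 were not matched, and 1 gene matched by a synonym. No sequences are printed. Alternatives were DESeq2 1.42.0 as the test, its size factors, a mean of at least 1 CPM or no filter, only the groups compared, a replicate block, each split as its own replicate, an adjusted p under 0.10, and leaving out each library.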

Additional observations from a re-analysis of the deposited data

How the results depend on the processing

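Under each alternative run, the median log2 fold change of the 44 genes stayed negative for 24 h against 0.5 h, 48 h against 24 h, 48 h against 0.5 h and late against 0.5 h libraries. Counts of calls moved more. For 24 h against 0.5 h, genes called among the 44 (0 in the fit reported) were 1 with DESeq2 size factors, 32 with DESeq2, 17 without a filter, 42 with splits as replicates and 13 at an adjusted p under 0.10. For 48 h against 24 h (0 reported) they were 22 with DESeq2, 4 without a filter and 31 with splits. Over all genes, rosiglitazone against DMSO (0 reported) gave 2 with DESeq2, 1 without a filter, 174 with only the groups compared and 78 with splits. At 24 h against 0.5 h (15 reported) these were 1212 with DESeq2, 334 without a filter, 0 with only the groups compared, 5629 with splits and 206 at 0.10. At 48 h against 24 h (0 reported) they were 492 with DESeq2, 19 without a filter and 2890 with splits. At 48 h against 0.5 h (1031 reported) they were 2547 with DESeq2, 2733 with only the groups compared, 6943 with splits and 1936 at 0.10. For late against 0.5 h libraries (1786 reported) they were 3337, 7936 and 3028 with DESeq2, splits and 0.10. Splits of a library share its RNA, so their fit understates the spread.

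Across all genes tested, deviations of same-numbered libraries correlated weakly (-0.083 for 0.5 and 24 h, 0.062 for 0.5 and 48 h, -0.122 for 24 and 48 h). Each value rests on the difference between the 2 libraries of each group, so it cannot decide whether same-numbered libraries were paired. Of the 44 genes, replicate 2 was lower for 35 at 0.5 h and 40 at 24 h, and higher for 34 at 48 h. With a replicate block, 26 of the 44 genes and 407 of all genes passed at 48 h against 0.5 h, 36 and 785 in the late comparison, and 0 and 1 at 24 h against 0.5 h. Crossing the numbers of 24 and 48 h, chosen after seeing the data, gave 0 of the 44 and 5 of all genes.

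Leaving out 1 library in turn, where the lone library was assumed to vary like the other groups, gave 0 to 27 of the 44 genes at 24 h against 0.5 h, 0 to 21 at 48 h against 24 h, 0 to 42 at 48 h against 0.5 h and 25 to 41 in the late comparison. Over all genes it gave 0 to 1008, 0 to 509, 12 to 2706 and 288 to 3569 in the same order. The median of the 44 was -0.34 to 0.0033 for rosiglitazone against DMSO and -2.48 to -1.18 for 48 h against 24 h. Signs turned in several of the 44 genes, in comparisons where 0 of them were called in the fit reported. Negative log2 fold changes were 37 and 41 of 44 at 48 h against 24 h without replicate 1 of 24 h and of 48 h (44 reported; 43 with only the groups compared), and 22 for rosiglitazone against DMSO without replicate 2 of 0.5 h (35 reported; 36 without replicate 1, 26 with a replicate block). At 24 h against 0.5 h they were 43 without replicate 1 of 24 h. Cdc25b ranged from -0.56 to 0.047 at 24 h against 0.5 h (0.047 without replicate 1 of 24 h), Kif15 from -0.33 to 0.071 at 48 h against 24 h (0.071 and 0.042 without replicate 1 of 24 h and of 48 h), and Cdc23, an anaphase-promoting complex gene outside the 44 that was not called, from -0.19 to 0.0092 at 48 h against 0.5 h (0.0092 without replicate 1 of 0.5 h). The cause was not tested. Depth limits genes near 0 counts at 48 h, above all in replicate 2.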
